A study of Mus musculus with 16 samples.

Results

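The Trim genes encode tripartite motif proteins, most of which carry a RING finger, B-boxes and a coiled coil, and many of which act as ubiquitin ligases. Members were all mouse protein-coding genes whose symbol is Trim and a number, with a letter suffix allowed and Trim24 left out, which gave 67 genes of the 21887 protein-coding genes in the RefSeq table for the same build. Chromatin accessibility was measured by ATAC-seq, which uses a transposase to tag open DNA with adapters, in 16 libraries of mouse prostate organoids, which are cultures of epithelium grown in a gel. The libraries form 4 groups of 4: SPOPmut organoids with DHT, SPOPmut organoids with EtOH, Control organoids with DHT and Control organoids with EtOH. DHT, the androgen dihydrotestosterone, was given at 10 nM for 24 h in organoid medium without mEGF, and EtOH is its solvent. All 16 libraries, Control ones included, carry the label sgNT. The SPOP allele, the driver of its expression, the strain and age of the donors and the number of organoid lines are not given in the sources used here.

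A region is a stretch where the peaks of the 16 lists overlap, and it counts as called in a library whose own list has a peak there. Each region went to the nearest protein-coding gene body within 100 kb. Of 86616 regions, 219 went to 53 Trim genes, and 206 of these were called in at least 2 libraries. The number of called regions per gene and library is the value compared below, and 37 Trim genes with at least 2 such regions were tested among 11213 genes. The other 30 comprised 15 genes with 1 region called in at least 2 libraries and 15 with none, which were Trim5, Trim10, Trim28, Trim30a, Trim30b, Trim30c, Trim30d, Trim32, Trim34b, Trim42, Trim46, Trim54, Trim60, Trim61 and Trim75. Genes without a region made up 22.4% of Trim genes and 28.4% of all protein-coding genes. The lists held 58800 to 69644 peaks in SPOPmut DHT, 60661 to 67005 in SPOPmut EtOH, 58038 to 63916 in Control DHT and 57245 to 64521 in Control EtOH libraries. Read counts are not in the peak lists, so depth is unknown and no counting interval can be given. Nothing in the labels tells if replicates are independent organoid cultures or mice, and the p-values therefore reflect the spread between these particular libraries. Peaks in bulk organoids also cannot tell fewer open cells from less open chromatin per cell.

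Ubiquitin ligases of the family mark proteins for degradation or signalling, and their carboxy-terminal domains set what they bind. PHD-bromodomain members such as Trim28 and Trim33 work with chromatin, NHL members such as Trim2 bind RNA or cytoskeletal proteins, COS box members bind microtubules or the sarcomere, and the large PRY-SPRY branch includes sensors and effectors of antiviral defence. SPOP is itself the substrate adaptor of a different ubiquitin ligase, and mutations in its substrate-binding domain recur in human prostate cancer.

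The promoter windows below were picked to show different patterns of calls. The Trim2 and Trim15 windows shown were called mostly in SPOPmut libraries, and the Trim69 window was missing from Control DHT libraries. The windows of Trim28, Trim21 and Trim12c were called in every library, and that of Trim30a in none. Each holds 250 bases before and 50 after a transcription start in RefSeq on GRCm38.p6, written 5′ to 3′ along the gene. Capitals mark matches to GAAANNGAAA, the interferon response element, or TGANTCA, the AP-1 site, on either strand. The 2 matches in Trim21 overlap. A window counts as called in a library where a called region overlaps it by at least 1 bp.
Trim2, chr3:84270734-84271033, minus strand: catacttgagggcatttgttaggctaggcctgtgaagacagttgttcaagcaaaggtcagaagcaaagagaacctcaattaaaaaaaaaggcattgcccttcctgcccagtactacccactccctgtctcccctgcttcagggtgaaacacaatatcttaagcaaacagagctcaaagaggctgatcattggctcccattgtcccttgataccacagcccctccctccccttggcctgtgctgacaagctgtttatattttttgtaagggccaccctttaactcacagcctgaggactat
Trim15, chr17:36867138-36867437, minus strand: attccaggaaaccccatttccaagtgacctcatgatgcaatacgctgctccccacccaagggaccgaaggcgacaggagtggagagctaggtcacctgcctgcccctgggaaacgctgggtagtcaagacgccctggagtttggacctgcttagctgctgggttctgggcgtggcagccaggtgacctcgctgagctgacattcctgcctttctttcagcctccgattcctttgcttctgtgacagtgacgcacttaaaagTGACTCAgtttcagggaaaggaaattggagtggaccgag
Trim69, chr2:122161306-122161605, plus strand: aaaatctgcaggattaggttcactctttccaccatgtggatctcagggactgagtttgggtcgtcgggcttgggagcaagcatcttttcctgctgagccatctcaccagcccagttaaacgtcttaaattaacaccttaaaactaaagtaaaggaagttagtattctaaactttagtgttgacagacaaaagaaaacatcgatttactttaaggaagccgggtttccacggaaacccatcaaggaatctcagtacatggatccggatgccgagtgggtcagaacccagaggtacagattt
Trim28, chr7:13023902-13024201, plus strand: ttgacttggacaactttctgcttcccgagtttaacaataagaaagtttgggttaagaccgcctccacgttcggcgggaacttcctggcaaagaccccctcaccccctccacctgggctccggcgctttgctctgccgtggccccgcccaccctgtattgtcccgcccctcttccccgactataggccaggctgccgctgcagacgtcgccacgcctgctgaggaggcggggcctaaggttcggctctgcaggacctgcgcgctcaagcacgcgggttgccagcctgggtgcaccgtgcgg
Trim21, chr7:102565433-102565732, minus strand: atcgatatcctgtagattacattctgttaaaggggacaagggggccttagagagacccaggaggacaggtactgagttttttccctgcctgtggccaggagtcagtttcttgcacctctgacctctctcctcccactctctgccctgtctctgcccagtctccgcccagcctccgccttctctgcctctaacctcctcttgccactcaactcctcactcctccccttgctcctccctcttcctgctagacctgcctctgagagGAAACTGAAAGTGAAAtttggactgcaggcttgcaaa
Trim12c, chr7:104353300-104353599, minus strand: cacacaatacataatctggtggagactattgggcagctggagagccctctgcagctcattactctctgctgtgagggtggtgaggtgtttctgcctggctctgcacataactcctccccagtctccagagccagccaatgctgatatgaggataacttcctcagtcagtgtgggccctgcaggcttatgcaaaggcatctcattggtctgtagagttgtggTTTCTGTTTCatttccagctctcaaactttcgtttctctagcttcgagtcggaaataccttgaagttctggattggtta
Trim30a, chr7:104446076-104446375, minus strand: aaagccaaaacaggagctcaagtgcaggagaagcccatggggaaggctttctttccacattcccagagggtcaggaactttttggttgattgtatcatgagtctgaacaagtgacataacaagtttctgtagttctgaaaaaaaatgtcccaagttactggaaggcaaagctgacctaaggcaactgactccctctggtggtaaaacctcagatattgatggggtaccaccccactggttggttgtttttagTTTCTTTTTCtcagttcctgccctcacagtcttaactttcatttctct

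Those windows differ in how the 16 libraries called them. The Trim2 window was called in 4 of 4 SPOPmut DHT, 4 of 4 SPOPmut EtOH, 0 of 4 Control DHT and 1 of 4 Control EtOH libraries, and it holds 0 CpG dinucleotides. Trim2, an NHL protein that ubiquitinates neurofilament light chain, has 5 windows in the table, and another of them, chr3:84259730-84260029, was called in all 16 libraries, while the other 3 were called in none. For Trim15, a PRY-SPRY protein found at focal adhesions, 2 overlapping windows were called in 2 SPOPmut DHT and 3 SPOPmut EtOH libraries and in 0 of 8 Control libraries. The Trim69 window printed above was called in every library of the other 3 groups and in 0 of 4 Control DHT libraries, and another window of Trim69 was called in all 16. The regions over the printed Trim15 and Trim69 windows did not pass by genotype (adjusted p = 0.169 for each, exact stratified test). The Trim69 region did not pass by DHT either (adjusted p = 0.28, exact stratified test). The Trim15 region had a median rank of percentile 6.98 by -log10 p in the lists that held it.

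Windows were found in RefSeq for 52 of the 67 genes, 65 windows in all. Counted by gene, 26 had a window called in all 16 libraries, which is 50% against 49.6% of 17492 protein-coding genes with windows. In 24 genes no window was called in any library (46.2%, against 45.2% of all genes), and for Trim15 and Trim12a the window with the most calls was called in some libraries only. The window of Trim12a, a gene of the chromosome 7 cluster, was called in 2 Control EtOH libraries and in no other. Median GC content was 60.5% in the genes with a window called everywhere and 47.5% in those called nowhere, and median CpG counts were 18 and 3. All genes showed the same order, at 62.7% and 49% GC and at 23 and 4 CpG dinucleotides. There were exceptions, such as Trim47, with 29 CpG dinucleotides and a call in no library. Trim28, the corepressor of KRAB zinc finger proteins, Trim32, an NHL ligase of muscle, and Trim46 each had a window called in all 16 libraries, although the regions over these windows lay nearer to the bodies of Gm31649, Astn2 and Krtcap2 and were counted there.

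**Figure D1:**
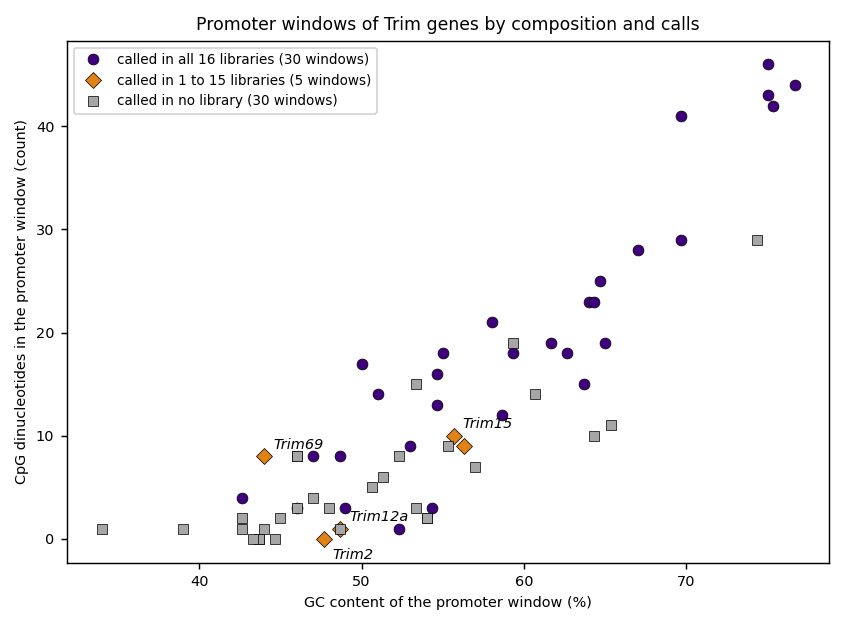
GC content (x axis, percent) and CpG dinucleotides (y axis, count) of the 65 promoter windows of 52 Trim genes. Circles are windows called in all 16 libraries (30), diamonds those called in 1 to 15 libraries (5) and squares those called in none (30); windows at high CpG counts are mostly circles.

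The interferon response element GAAANNGAAA matched 10 of the 65 Trim windows (15.4%), against 3.44% of all 32851 windows. The matches fell in 9 genes, Trim2, Trim5, Trim12a, Trim12c, Trim21, Trim26, Trim30a, Trim30d and Trim34a, of which 6 sit in the chromosome 7 cluster and share sequence. Of those windows, the ones of Trim12c, Trim21, Trim26 and Trim34a were called in all 16 libraries, and the ones of Trim5, Trim30a, Trim30d and Trim2 were called in none. TGANTCA matched 15.4% of Trim windows and 7.81% of all windows. AGAACA, the core of androgen response elements, matched 15.4% of Trim windows and 19% of all windows. A match is a run of letters and not a bound site, and overlapping windows of a gene are counted separately.

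Regions of Trim genes lay outside gene bodies more often, as a description, than those of all genes. Of the 206 regions, 18% lay within 1 kb of a gene end, 35.4% inside the body and 46.6% outside, against 15.7%, 47.2% and 37.1% of 73249 regions of all genes. The share called in all 16 libraries was 57.3% for Trim genes and 50.1% for all genes. Near gene ends it was 78.4% and 80%. Trim2 held the most regions, 30, followed by Trim29 and Trim33 with 17 each and Trim27 with 13.

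The summed count over the family was close between groups. It ran from 142 to 175 in SPOPmut DHT, 147 to 165 in SPOPmut EtOH, 154 to 162 in Control DHT and 155 to 171 in Control EtOH libraries, so the ranges overlap. As a share of all regions called in a library, those far from any gene included, it was 0.264% ± 0.00654 in SPOPmut DHT, 0.263% ± 0.00461 in SPOPmut EtOH, 0.275% ± 0.00834 in Control DHT and 0.281% ± 0.00706 in Control EtOH libraries (SD, n = 4 each). In EtOH the shares of the genotypes did not overlap, at 0.257% to 0.268% in SPOPmut and 0.273% to 0.290% in Control libraries. In DHT they did, at 0.255% to 0.270% and 0.264% to 0.282%. The count was above 0 and the same in every library at 15 genes, 10 of which had a single region. Trim25, the ligase that activates the RNA sensor RIG-I, had 4 regions in each of the 16 libraries. Trim21, the cytosolic antibody receptor, and Trim68, which binds the androgen receptor in human cells, had 1 region called in all 16. Trim6, Trim13 and Trim17 stayed at 3 regions and Trim26 at 2.

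**Figure D2:**
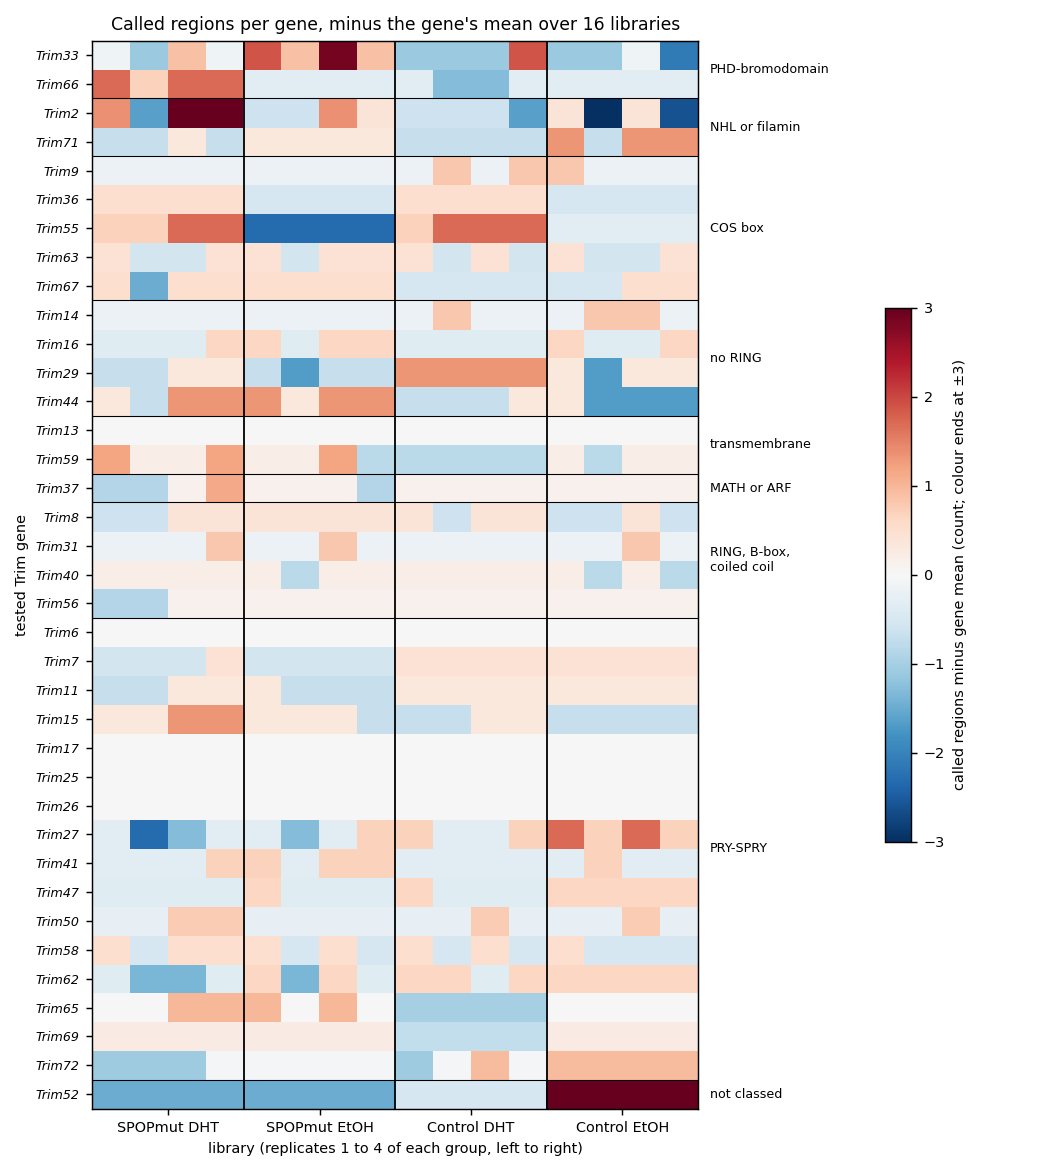
Called regions of the 37 tested Trim genes (rows, grouped by domain class) in the 16 libraries (columns, by group), each as the count minus the gene's mean over all libraries; colour runs from -3 to 3 regions. Trim52 is high in the 4 Control EtOH libraries and Trim55 low in the 4 SPOPmut EtOH libraries, while Trim6, Trim13, Trim17, Trim25 and Trim26 are flat.

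The genotype comparison sets the called regions of these genes in SPOPmut libraries against those in Control libraries, over both treatments. As the number of organoid lines is not given, a difference of genotype cannot be told apart from one of lines. More regions were called in SPOPmut at 3 of 37 Trim genes (8.11%), against 19.4% of all 11213 genes. Fewer were called at 6 of 37 (16.2%), against 12.1% of all genes. The median change was 0 regions in the family and over all genes. The test was a two-sided exact permutation of genotype labels within treatment (4900 arrangements), with Benjamini-Hochberg adjustment over all genes tested, and a call means an adjusted p under 0.05.

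**Figure D3:**
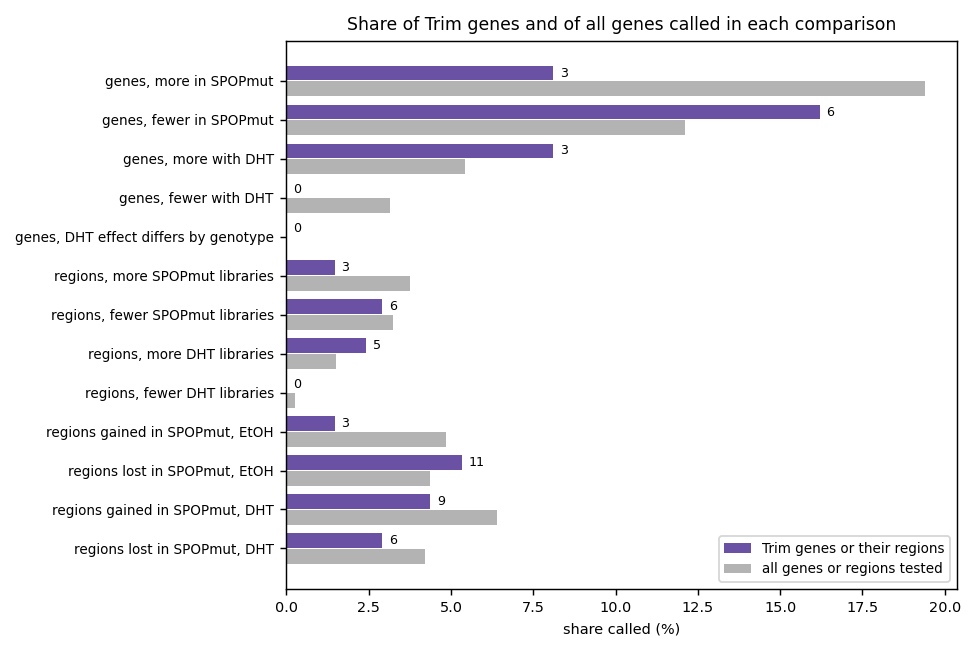
Share called (x axis, percent) among Trim genes or their regions (dark bars, with the number called) and among all genes or regions tested (grey bars) in each comparison. The dark bar is shorter than the grey one for genes with more regions in SPOPmut (8.11% and 19.4%) and longer for genes with fewer (16.2% and 12.1%).

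Among the genes that passed, Trim44, which lacks a RING finger, gained most. It had 3, 2, 4 and 4 called regions in SPOPmut DHT libraries and 4, 3, 4 and 4 in SPOPmut EtOH libraries, against 2, 2, 2 and 3 in Control DHT and 3, 1, 1 and 1 in Control EtOH libraries. The genotypes overlap at 2 and 3 regions. The mean was 1.62 regions higher in SPOPmut (adjusted p = 0.0316, exact permutation test). The promoter of Trim44 was called in all 16 libraries, and the differences lay at 3 other regions, 2 in the gene body and 1 upstream of its start. Chromosome 2, where it lies (chr2:102300119-102400900), accounted for 8.42% ± 0.035 of a SPOPmut library's called regions and 7.02% ± 0.0512 of a Control library's (SD, n = 8 each). Subtracting the call rate of the chromosome left a difference of 1.01 regions and ended the call (adjusted p = 0.052, exact permutation test, with 0.0109 to 0.073 over all alternatives).

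Trim65, which ubiquitinates the RNA sensor MDA5, had 2, 2, 3 and 3 regions in SPOPmut DHT and 3, 2, 3 and 2 in SPOPmut EtOH libraries, against 1 in each Control DHT and 2 in each Control EtOH library. The difference was 1 region (adjusted p = 0.0237, exact permutation test), and no Control library exceeded any SPOPmut library. Its region at chr11:116123251-116124551, within 1 kb of the gene end, was called in all libraries except those of Control DHT. Trim15 had 1, 1, 2 and 2 regions in SPOPmut DHT and 1, 1, 1 and 0 in SPOPmut EtOH libraries, against 0, 0, 1 and 1 in Control DHT and 0 in each Control EtOH library. The difference was 0.875 regions (adjusted p = 0.0418, exact permutation test), and the call was lost in 4 of 16 fits that left out a library, namely SPOPmut DHT replicate 3 or 4 or Control DHT replicate 1 or 2, with adjusted p up to 0.0612 (exact permutation test, with 0.0115 to 0.0633 over all alternatives).

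Trim52 fell furthest of the family. It had 0 called regions in all 8 SPOPmut libraries, against 1 in each Control DHT and 5 in each Control EtOH library, a difference of -3 regions (adjusted p = 0.00325, exact permutation test). All 5 regions lay 20897 to 57585 bp beyond the gene body (chr14:106106198-106135862), and its own promoter window was called in no library. The farthest, chr14:106193027-106193868, was called in all 8 Control libraries, and the other 4 in the 4 Control EtOH libraries and no others. Assignment to Trim52 rests on it being the nearest gene body, so these values describe the interval beside the gene. Chromosome 14 accounted for 2.87% ± 0.0342 of a SPOPmut library's called regions and 3.4% ± 0.0427 of a Control library's (SD, n = 8 each), and the Trim52 call held in all 24 alternatives that could be run, with adjusted p of 0.00201 to 0.0476 (exact permutation test).

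Trim7, a ligase that binds glycogenin, had 5, 5, 5 and 6 regions in SPOPmut DHT and 5 in each SPOPmut EtOH library, against 6 in all 8 Control libraries. The difference of -0.875 regions (adjusted p = 0.0102, exact permutation test) comes from a single region in the gene body, chr11:48844158-48844752, called in 1 of 8 SPOPmut and 8 of 8 Control libraries. Trim72, or MG53, which reseals muscle membranes, had 2, 2, 2 and 3 regions in SPOPmut DHT and 3 in each SPOPmut EtOH library, against 2, 3, 4 and 3 in Control DHT and 4 in each Control EtOH library. The difference was -0.875 regions (adjusted p = 0.0411, exact permutation test), and within DHT the genotypes overlap. Its DHT effect was also -0.875 regions, short of the threshold (adjusted p = 0.0824, exact permutation test). Leaving out peaks with a signal under 400 ended the genotype calls of Trim7, Trim29, Trim44, Trim55, Trim65 and Trim72, and counting every region within 10 kb of a gene body ended those of Trim7, Trim29, Trim55 and Trim72. Trim15 was not tested without those peaks, and Trim52 was not tested with the 10 kb rule.

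Trim27, a nuclear repressor first found fused to RET, had 9, 7, 8 and 9 regions in SPOPmut DHT and 9, 8, 9 and 10 in SPOPmut EtOH libraries, against 10, 9, 9 and 10 in Control DHT and 11, 10, 11 and 10 in Control EtOH libraries. The difference was -1.38 regions (adjusted p = 0.0278, exact permutation test). Its region at chr13:21179340-21181502, at the promoter, was called in all 16 libraries, and the changes lay in regions upstream. Of these, chr13:21172237-21173006 was called in 1 SPOPmut DHT, 2 SPOPmut EtOH, 4 Control DHT and 4 Control EtOH libraries. Chromosome 13 accounted for 4.52% ± 0.0436 of a SPOPmut library's called regions and 5.16% ± 0.0224 of a Control library's (SD, n = 8 each). After subtracting the call rate of the chromosome the difference was -0.589 regions and no longer passed (adjusted p = 0.161, exact permutation test, the highest of 0.00631 to 0.161 over all alternatives).

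**Figure D4:**
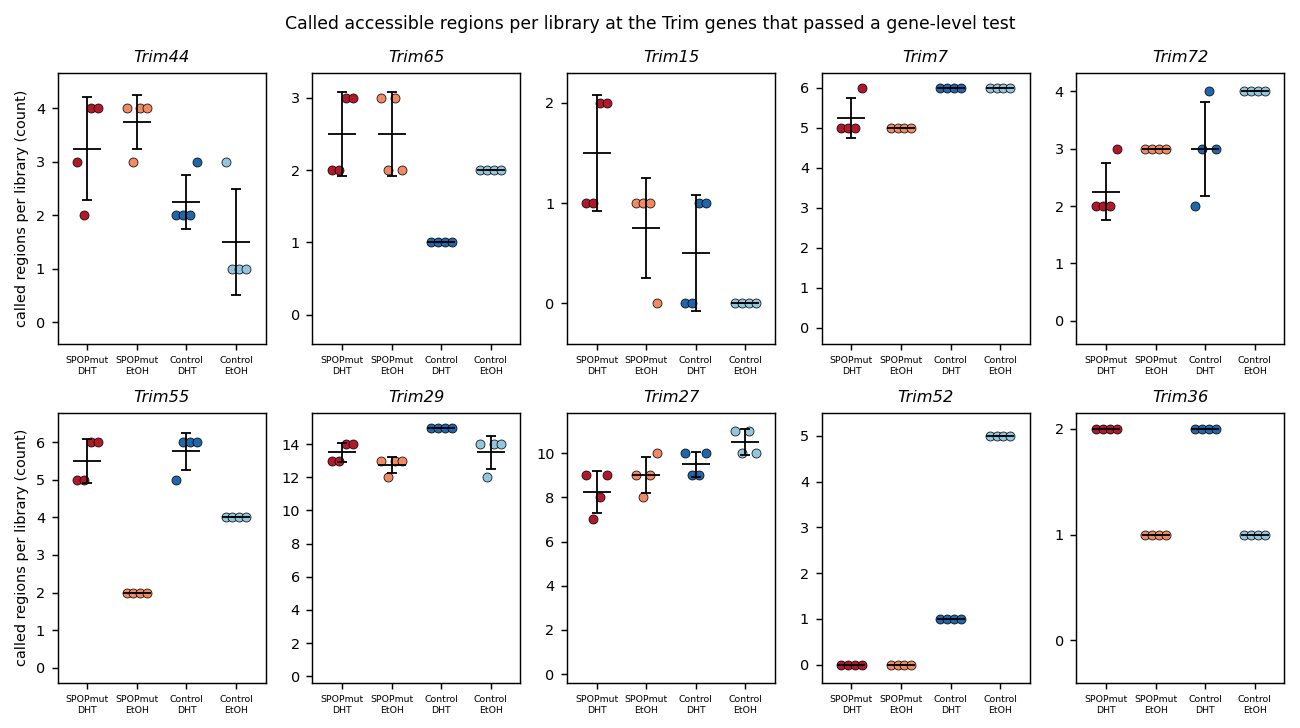
Called regions per library (y axis, count) for the 10 Trim genes that passed the genotype or the DHT test, by group; points are libraries, the wide bar is the group mean and whiskers are ± 1 SD. Trim52 is at 0 in all SPOPmut libraries, and Trim36 is at 2 in all DHT and 1 in all EtOH libraries.

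Trim55 and Trim29 passed both for genotype and for DHT. Trim55, a muscle RING finger protein of the sarcomere, had 5, 5, 6 and 6 regions in SPOPmut DHT, 2 in each SPOPmut EtOH, 5, 6, 6 and 6 in Control DHT and 4 in each Control EtOH library. DHT libraries were above EtOH libraries of the same genotype in every case, with a mean difference of 2.62 regions (adjusted p = 0.0119, exact permutation test). The genotype difference of -1.12 regions (adjusted p = 0.0456, exact permutation test) comes from the EtOH libraries, where the groups do not overlap. With DHT the counts of both genotypes were 5 or 6. The genotype call was lost in each of the 8 fits that left out an EtOH library, SPOPmut or Control, with adjusted p up to 0.0669 (exact permutation test, with 0.00287 to 0.158 over all alternatives).

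Within the body of Trim55 (chr3:19644344-19692584) the regions follow several patterns. Regions chr3:19664650-19665417 and chr3:19674512-19674983 were called in all 8 DHT libraries and in 0 of 8 EtOH libraries. Region chr3:19684673-19685479 was called in 0 of 8 SPOPmut and 8 of 8 Control libraries. Region chr3:19679738-19680234 was called in all 4 SPOPmut DHT libraries and in no other. A region beside these, chr3:19663014-19663725, was called in all 16. Of the skeletal muscle markers, Acta1 and Mylpf had 0 regions in every library, and the 5 markers summed to 3 in each SPOPmut DHT, 3 in each SPOPmut EtOH, 2 to 4 in Control DHT and 4 to 5 in Control EtOH libraries. Of the 2 that could be tested, Ckm had more regions in SPOPmut and Myh1 fewer (50% each, against 19.4% and 12.1% of all genes). The part of these markers in the result was not tested.

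Trim29, which lacks a RING finger and is expressed in basal cells of stratified epithelia, had 13, 13, 14 and 14 regions in SPOPmut DHT and 13, 12, 13 and 13 in SPOPmut EtOH libraries, against 15 in each Control DHT and 14, 12, 14 and 14 in Control EtOH libraries. The genotype difference was -1.12 regions (adjusted p = 0.0493, exact permutation test) and the DHT difference 1.12 regions (adjusted p = 0.0477, exact permutation test). Both sit at the edge of the threshold. The genotype call was lost without SPOPmut EtOH replicate 2 or Control EtOH replicate 1, 3 or 4, and the DHT call without SPOPmut DHT replicate 3 or 4 or SPOPmut EtOH replicate 2 (adjusted p up to 0.0758 and 0.0669, exact permutation test). Over all alternatives the adjusted p ran from 0.00201 to 0.905 for genotype and from 0.0115 to 1 for DHT (exact permutation test). The DHT difference turned negative, to -0.625, when peaks with a signal under 400 were left out, and to -0.125 when peaks had to cover 50% of a region.

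At some single regions of Trim29 the contrasts were clearer. Both chr9:43286669-43287205 and chr9:43308603-43309248, 23778 and 1790 bp from the body at chr9:43310715-43336125, were called in 0 of 8 SPOPmut, 4 of 4 Control DHT and 3 of 4 Control EtOH libraries. Between them, chr9:43307110-43307584 went the other way without passing (adjusted p = 0.169, exact stratified test). It was called in 2 SPOPmut DHT, 3 SPOPmut EtOH and 0 Control libraries. Region chr9:43394167-43394817, 58367 bp from the gene body, was called in all 8 DHT and 0 of 8 EtOH libraries. A further 12 regions, among them the region over the lower end of the gene body, were called in all 16. Basal markers beside it were mixed by genotype: of 4 tested, Krt14 had more regions in SPOPmut and Trp63 fewer. That is 25% each, against 19.4% and 12.1% of all genes. With DHT 1 of the 4 passed (25%, against 5.41% of all genes with more regions). It was Trp63, with 4.38 more regions (adjusted p = 0.0256, exact permutation test). The basal list summed to 31 to 33 in SPOPmut DHT, 28 to 31 in SPOPmut EtOH, 35 to 39 in Control DHT and 30 to 33 in Control EtOH libraries, and its part in the result was not tested.

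The DHT comparison sets called regions in DHT libraries against those in EtOH libraries, over both genotypes. More regions were called with DHT at 3 of 37 Trim genes (8.11%), against 5.41% of all genes, and fewer at 0 of 37, against 3.14%. At an unadjusted p under 0.05 the same exact permutation test took 7 Trim genes in either direction (18.9%), against 23.3% of all genes. Besides Trim55 and Trim29, the call was Trim36, a microtubule-associated ligase that is androgen-responsive in human prostate cancer cells. Trim36 had 2 regions in each of the 8 DHT libraries and 1 in each of the 8 EtOH libraries, whatever the genotype, a difference of 1 region (adjusted p = 0.0119, exact permutation test). The region that made the difference, chr18:46161879-46162336, lay 3193 bp from the gene body, and the other, chr18:46198044-46199637, lay inside it and was called in all 16 libraries. Leaving out peaks with a signal under 400 ended the DHT calls of Trim36 (adjusted p = 0.133, with 0.00571 to 0.149 over all alternatives, exact permutation test) and Trim55 (adjusted p = 0.418, with 0.00571 to 0.418, exact permutation test). Counted as a share of all called regions of a library, 3 Trim genes had more with DHT and 2 fewer (5 of 37), against 20.6% of all genes called in either direction. With the call rate of the chromosome subtracted 4 had more and 3 fewer (7 of 37), against 21.4% of all genes. Trim72 was among those with fewer under both, with adjusted p of 0.0116 and 0.0115 (exact permutation test, with 0.0115 to 0.211 over all alternatives).

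No gene passed the test of whether the DHT effect differed by genotype, among 37 Trim genes or among all 11213 (0%). At an unadjusted p under 0.05 the exact permutation test took 3 Trim genes (8.11%) and 799 of all genes (7.13%), so the shares were close. Where only 1 genotype responds, this test cannot give a p below 0.0286 for constant counts in the other, so the count of 0 is set in part by the design. The 3 genes were Trim52, Trim66 and Trim69. Trim66, a PHD-bromodomain protein related to Trim28 and Trim33, had 4, 3, 4 and 4 regions in SPOPmut DHT and 2 in each SPOPmut EtOH, against 2, 1, 1 and 2 in Control DHT and 2 in each Control EtOH library (adjusted p = 0.511, exact permutation test). Its region chr7:109499744-109500367, inside the gene body, was called in the 4 SPOPmut DHT libraries and in no other, and its median rank in those lists was percentile 67.6 by -log10 p.

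Other members of interest did not pass at the gene level, and their values are given as such. Trim2 had 23, 20, 26 and 26 regions in SPOPmut DHT and 21, 21, 23 and 22 in SPOPmut EtOH libraries, against 21, 21, 21 and 20 in Control DHT and 22, 18, 22 and 19 in Control EtOH libraries. The difference of 2.25 regions did not pass (adjusted p = 0.107, exact permutation test), and did without SPOPmut DHT replicate 2 (adjusted p = 0.0227, exact permutation test, with 0.00918 to 0.426 over all alternatives). Trim33, a regulator of SMAD4 and chromatin reader, had 12, 11, 13 and 12 in SPOPmut DHT and 14, 13, 15 and 13 in SPOPmut EtOH libraries, against 11, 11, 11 and 14 in Control DHT and 11, 11, 12 and 10 in Control EtOH libraries. Its difference of 1.5 regions did not pass (adjusted p = 0.124, exact permutation test), and did without Control DHT replicate 4 (adjusted p = 0.0102, exact permutation test, with 0.0102 to 0.963 over all alternatives). The Trim33 difference itself ran from -0.5 to 1.88 regions over all alternatives, so its direction was not kept. Trim8, which binds SOCS1, had 3 or 4 regions in every library, and Trim63, the other muscle RING finger gene, had 0 or 1.

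Single regions were tested by an exact stratified test over the 16 libraries with adjustment over 80352 regions. Among the 206 Trim regions, 3 were called in more SPOPmut libraries (1.46%, against 3.76% of all regions) and 6 in fewer (2.91%, against 3.23%). Over both genotypes, more DHT libraries called 5 regions (2.43%, against 1.51%) and fewer called 0 regions (0%, against 0.259%). The genotype shares were thus near or below those of all regions. The 5 DHT regions were 2 at Trim55 and 1 each at Trim29, Trim36 and Trim2 (chr3:84332084-84332551, 23965 bp from the body). Each was called in all 8 DHT and none of the 8 EtOH libraries, with an adjusted p of 0.0231 (exact stratified test). Only that pattern gives the smallest p of this test, so it was a condition of passing. Their median ranks in the lists that held them were low, from percentile 12.4 at Trim2 to 29.9 at Trim36 by -log10 p.

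The 3 regions higher in SPOPmut all lay on chromosome 3. The Trim2 region chr3:84269834-84271224, which covers the window printed above, had an adjusted p of 0.0292 (exact stratified test) and its median rank in the lists that held it was percentile 52.8 by -log10 p. The Trim33 region chr3:103256071-103256657, 22929 bp from the body, and the Trim59 region chr3:69054785-69055363, 10332 bp from the body, were called in 8 of 8 SPOPmut and 0 of 8 Control libraries (adjusted p = 0.00961, exact stratified test). Trim59 is a membrane-anchored member of the family. Chromosome 3 accounted for 5.44% ± 0.0525 of a SPOPmut library's called regions and 5.18% ± 0.0292 of a Control library's (SD, n = 8 each).

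The 6 regions lower in SPOPmut were the 2 at Trim29, those at Trim7 and Trim55, the far region beside Trim52, and a region at Trim35. Trim35, a PRY-SPRY ligase, had no other region, so it was not tested as a gene. Its region chr14:66296559-66297791 spans the lower end of the gene body and was called in 0 of 8 SPOPmut and 8 of 8 Control libraries (adjusted p = 0.00961, exact stratified test). Trim80 showed a like direction without a call: its single region was called in 0 of 8 SPOPmut, 1 Control DHT and 4 Control EtOH libraries (adjusted p = 0.123, exact stratified test).

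**Figure D5:**
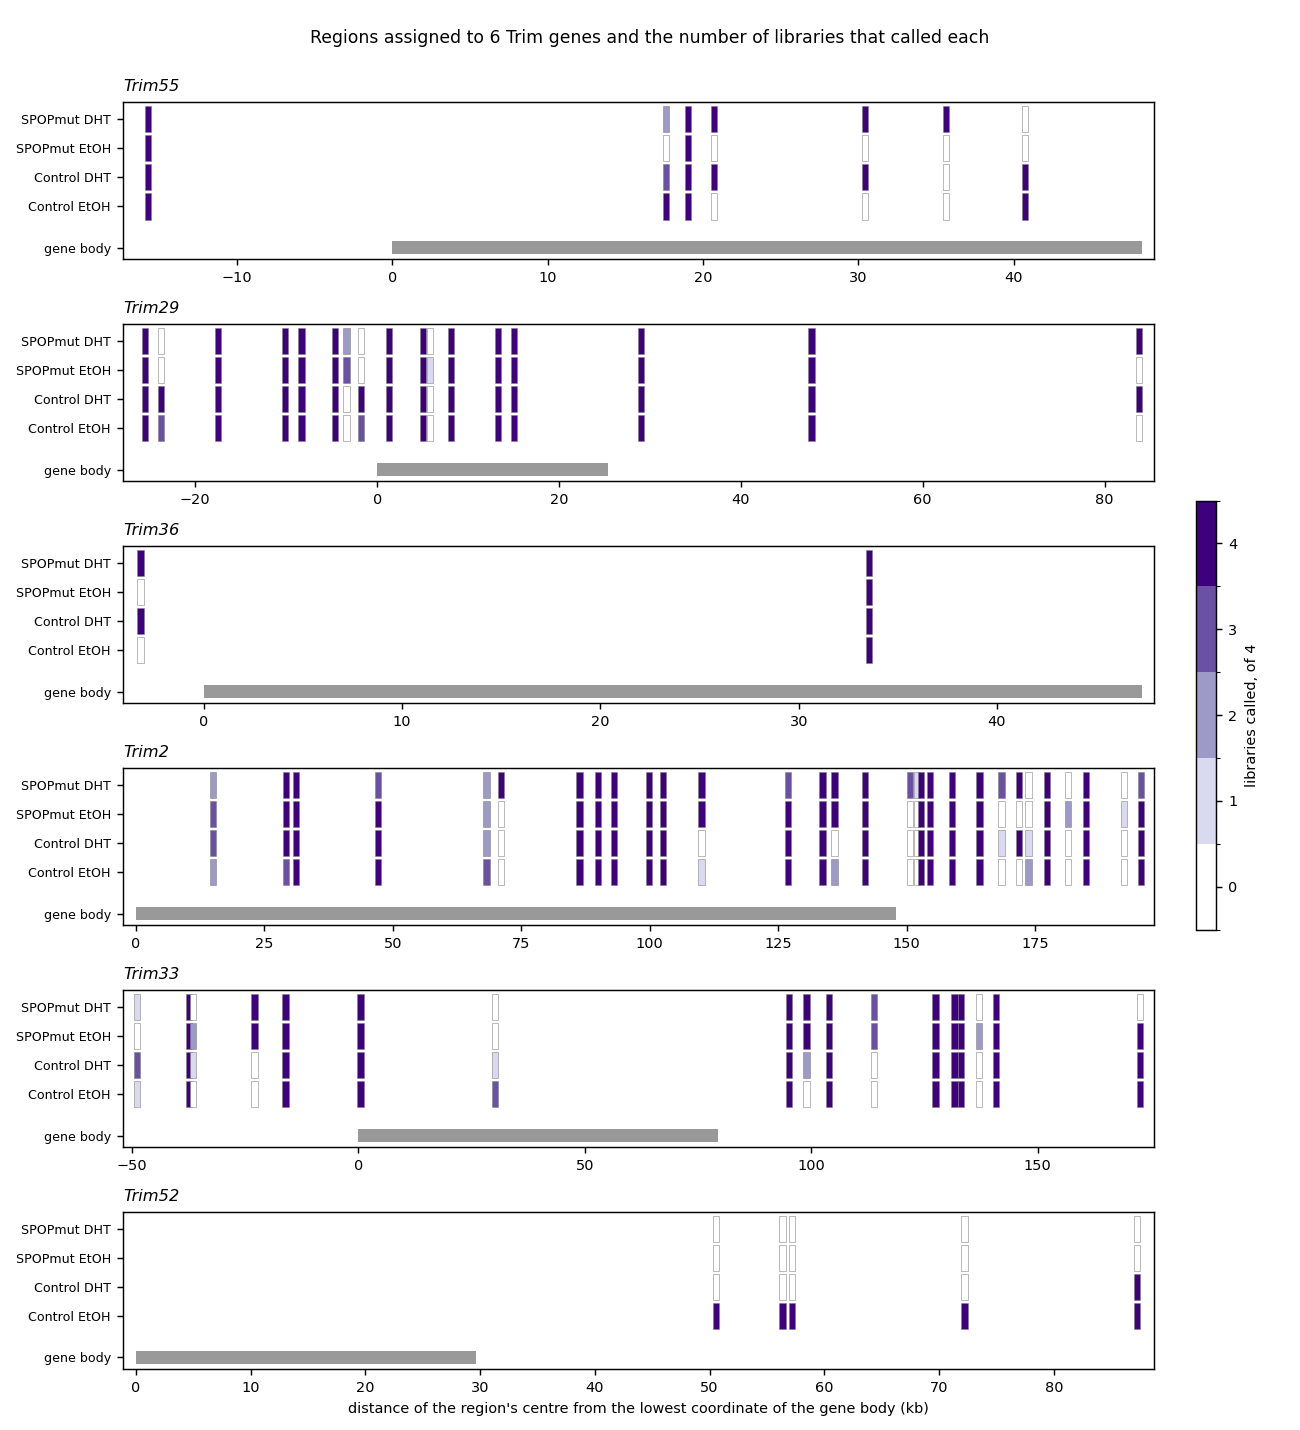
Regions assigned to 6 Trim genes, placed by the distance of their centre from the lowest coordinate of the gene body (x axis, kb); rows are groups, shading is the number of the 4 libraries that called the region, and the grey bar is the gene body. At Trim55, Trim29, Trim36 and Trim2 regions appear that are dark in both DHT rows and white in both EtOH rows, and at Trim52 only the Control rows are shaded.

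Within a treatment, 4 libraries against 4 cannot give an exact p below 0.0286, so regions that every library of one genotype and no library of its counterpart called are counted as a description. In EtOH, 3 Trim regions had a call in every SPOPmut library and in no Control library (1.46%, against 4.84% of all regions), and 11 showed the opposite (5.34%, against 4.36%). In DHT, 9 were gained (4.37%, against 6.41%) and 6 lost (2.91%, against 4.22%). The 11 lost in EtOH lay at Trim7, Trim35, Trim52, Trim55, Trim72 and Trim80, of which Trim52 alone held 5. Gains in DHT lay at Trim2, Trim33, Trim55, Trim59, Trim65, Trim66 and Trim69. Within SPOPmut, 9 Trim regions were called in every DHT and no EtOH library, and 1 showed the opposite. Within Control, 5 were called in every DHT and no EtOH library. There 8 showed the opposite, at Trim27, Trim52, Trim59, Trim65 and Trim69. Shares of all regions were not computed for these counts by DHT.

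By domain class the genotype calls were spread. Of 16 tested PRY-SPRY genes 2 had more and 3 fewer regions, of 4 genes without a RING 1 had more and 1 fewer, of 5 COS box genes 1 had fewer, and Trim52 is not classed. None of the PHD-bromodomain, NHL, transmembrane or remaining classes had a call. The DHT calls were 2 of 5 COS box genes and 1 of 4 genes without a RING. Over all genes tested, 19.4% had more and 12.1% fewer regions in SPOPmut, and 5.41% had more with DHT. The class counts are counts of single genes, and no class was tested as a set. In sums, COS box genes had 11 to 15 called regions in SPOPmut DHT, 9 to 10 in SPOPmut EtOH, 13 to 14 in Control DHT and 10 to 12 in Control EtOH libraries. PHD-bromodomain genes had 14 to 17 in SPOPmut DHT, 15 to 17 in SPOPmut EtOH, 12 to 16 in Control DHT and 12 to 14 in Control EtOH libraries.

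Of the tandem clusters, that on chromosome 7 held fewer regions for its genes than that on chromosome 17. The chromosome 7 cluster from Trim6 to Trim30d (chr7:104218795-104507853) holds 10 genes, of which 4 had a region and 6 regions in all, while the chromosome 17 cluster from Trim26 to Trim31 (chr17:36837123-36910217) holds 5 genes, of which 4 had a region, with 10 regions. Reads from near-identical copies can be lost or split, and how such reads were treated is not given in the sources used here. Counts for Trim12, Trim30, Trim34 and Trim43 copies are therefore uncertain.

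TRIM proteins under other symbols and partners of the family, 25 genes, were counted beside it. Of 21 tested, 4 had more regions in SPOPmut (19%), against 19.4% of all genes, and 0 had fewer, against 12.1%. With DHT 0 had more, against 5.41% of all genes, and 1 had fewer (4.76%), against 3.14%. Mid1, a microtubule-bound TRIM protein, and Smad3, a transcription factor of TGF-beta signalling, were each higher in SPOPmut by 6.25 regions (adjusted p = 0.00325, exact permutation test). Ube2v1 and Mid2 were higher by 1.62 and 1.12 regions (adjusted p of 0.00783 and 0.0302, exact permutation test). Smad2 was lower with DHT by 2.62 regions (adjusted p = 0.0256, exact permutation test).

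Luminal and basal markers also differed between the groups compared here. Of 7 tested luminal genes 5 had more regions in SPOPmut (Krt8, Krt18, Krt19, Cd24a and Foxa1) and 0 fewer. These shares were 71.4% and 0%, against 19.4% and 12.1% of all genes. With DHT 1 of the 7 passed (14.3%, against 5.41% of all genes with more regions). It was Cd24a, with 1.12 more regions (adjusted p = 0.0477, exact permutation test). The luminal list summed to 46 to 52 in SPOPmut DHT, 44 to 49 in SPOPmut EtOH, 37 to 39 in Control DHT and 32 to 40 in Control EtOH libraries. Endothelial genes summed to 9 to 13 in SPOPmut DHT, 12 in each SPOPmut EtOH, 16 to 19 in Control DHT and 18 to 20 in Control EtOH libraries, and of 3 tested 2 had fewer regions in SPOPmut. That share of endothelial genes was 66.7%, against 12.1% of all genes. In the stromal list 1 of 4 tested genes had fewer regions in SPOPmut, as did 1 of 4 in the neuronal list. In the immune list 1 of 4 had more. Each of these was 25%, against 12.1% of all genes with fewer and 19.4% with more. The lists are short and were not tested as sets. Krt5, which defines basal epithelium, had 3 called regions in each of the 16 libraries. The part of these differences in the Trim results was not tested.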

How the data were processed

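ATAC-seq peak lists of 16 libraries in 4 groups of 4 were used. The tools named, per the submitters' processing notes, are Bowtie2 2.3.4.1, SAMtools 1.8 and Genrich, whose version is not given in the sources used here, with mm10 as the build. Each library has its own list. The deposited lists give a signal per peak and a -log10 p per peak, both as the authors' caller computed them, and they served only for ranks and filters inside each list. Signal tracks pooled over replicates were not used here.

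Peaks overlapping by at least 1 bp were merged, regions called in at least 2 libraries were kept, and each was given to the nearest protein-coding gene body within 100 kb, the shortest gene where several cover its midpoint (RefSeq, GRCm38.p6). Called regions per gene were compared by two-sided exact permutation within the other factor (4900 arrangements, smallest p 0.000408) and regions by an exact stratified test, with Benjamini-Hochberg adjustment over all 11213 genes or 80352 regions. The test of a difference in DHT effect permutes treatment within genotype and assumes no DHT effect. Python 3.11.15, NumPy 2.4.6, pandas 2.3.3, SciPy 1.17.1 and Matplotlib 3.10.9 were used, and the tests were checked on simulated data.

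The members, gene lists and tests were chosen with earlier results of these data known. Named genes are the members that passed a gene-level test, plus Trim2, Trim8, Trim21, Trim25, Trim27, Trim28, Trim29, Trim33, Trim36, Trim63 and Trim68, and the 5 regions per direction and comparison with the smallest p, ties going to the higher percentile. Trim6, Trim12a, Trim12c, Trim13, Trim17, Trim26, Trim30a, Trim32, Trim35, Trim46, Trim47, Trim59, Trim66, Trim69 and Trim80, where described outside that rule, were chosen after their values were seen. Domain classes follow general knowledge of the family, and Trim42, Trim47, Trim52, Trim61, Trim62, Trim65 and Trim80 were placed after the other classes had been set. Alternatives varied the assignment, scaling, list length, signal minimum, overlap, filters, library left out and replicate block. Replicate numbers paired the libraries in part: 12 of 24 same-numbered pairs, those of numbers 2 and 3, correlated above 0.1. The range over all 24 pairs was -0.266 to 0.391. The labels do not say that a number marks a shared culture or day, so the main tests were not blocked by number. Calls with the number as a block are given at the end. Sequence under regions outside the promoter windows was not analysed here.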

Additional observations from a re-analysis of the deposited data

Results flagged for a closer look

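In groups of 4 libraries, 14 of 80 groups examined held a library set apart from the other 3. The groups cover the named genes, the list lengths and the family totals. The rule is set to flag about 1 in 20 groups of continuous values, and that rate does not hold here. The counts are small whole numbers, and a group with 3 equal counts and 1 that differs is always flagged. In 11 of the 14 the library differed by 1 region. Within SPOPmut DHT, replicate 4 had 6 regions at Trim7 where the others had 5, and 3 at Trim72 where the others had 2. Within SPOPmut EtOH, replicate 2 had 12 at Trim29 (others 13), 3 at Trim44 (others 4) and 0 at Trim63 (others 1), and replicate 4 had 0 at Trim15 (others 1). Within Control DHT, replicate 4 had 20 at Trim2 (others 21), 14 at Trim33 (others 11) and 3 at Trim44 (others 2), replicate 1 had 5 at Trim55 (others 6), and replicate 2 had 3 at Trim8 (others 4). Within Control EtOH, replicate 2 had 12 at Trim29 (others 14), replicate 1 had 3 at Trim44 (others 1), and replicate 3 had 4 at Trim8 (others 3).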

How the results depend on the processing

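The 9 genotype calls and 3 DHT calls among Trim genes depended on how counts were scaled and filtered. With counts as a share of all called regions there were 16 genotype calls, 6 higher and 10 lower in SPOPmut, and 5 for DHT, while 43.9% and 20.6% of all genes were called, against 31.5% and 8.55% before. With the call rate of the chromosome subtracted there were 14 genotype and 7 DHT calls (49.1% and 21.4% of all genes), and with lists of equal length 14 for genotype, 3 higher and 11 lower (34.9% of all genes). Counting every region within 10 kb of a gene body kept 9 genotype calls but as 7 higher and 2 lower, with 4 of the genes shared (25% of all genes). With a signal of at least 400 there were 4 genotype calls (33.4% of all genes), 1 DHT call, with fewer regions (9.11% of all genes), and 1 region called for DHT in place of 5, also with fewer. Requiring peaks to cover 50% of a region left 3 DHT regions. Under these last settings the DHT change of Trim29 turned to -0.625 and -0.125. The causes were not tested.

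With the replicate number as a block, 1 genotype call (Trim52) and 0 DHT calls were left, from 256 sign flips (16.4% and 0% of all genes). So few flips give a higher smallest p than the main tests have, and adjustment ran over all genes. The loss of calls is therefore set in part by the design. For DHT no gene at all passed, so that count cannot tell a lost effect from a test that is too coarse. Of the 16 libraries, 8 were closest to another library of their own number. All 6 pairs of number 2 (0.171 to 0.391) and all 6 of number 3 (0.142 to 0.216) correlated above 0.1. For number 1 and for number 4, 0 of 6 did. Some pairs of different numbers also correlated above 0.1. The highest value between libraries of different groups was such a pair, SPOPmut DHT replicate 4 with SPOPmut EtOH replicate 3 (0.401). Pairing by number thus held in part, and the main tests left it out. Leaving out each library gave 7 to 11 genotype calls and 2 to 4 DHT calls at genes. For genotype that was 18.9% to 29.7% of Trim genes, against 32% to 33.8% of all genes. For DHT it was 5.41% to 11.1% of Trim genes, against 8.57% to 9.88% of all genes. At regions these fits gave 9 to 11 genotype calls and 5 DHT calls, and shares of all regions were not computed for them. The count of genes whose DHT effect differed by genotype was 0 under every alternative run. Counts of regions that separate the genotypes, 24 in all, were 19 to 29 over the alternatives run. Trim52 could not be tested within 25 kb or 10 kb, where fewer than 2 of its regions lie. Over the genes named, 248 values of changes that passed kept their direction and their call, 58 lost the call and 2 turned. Depth is unknown, so a region not called is not shown to be closed.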
